A study of Mus musculus with 14 samples.

Results

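The genes described here carry symbols that begin with Psma, Psmb, Psmc, Psmd, Psme, Psmf or Psmg followed by a digit, the naming scheme of proteasome subunits and their partners. The scheme picked 50 of the 21878 genes in the count and FPKM tables, without use of any measured value. By role they comprise 14 constitutive subunits of the 20S core, 3 immunoproteasome subunits (Psmb8, Psmb9 and Psmb10), 17 subunits of the 19S regulatory particle, 3 chaperones of 19S assembly, 4 chaperones of 20S assembly, 5 activators and the regulator Psmf1. The remaining 3 are Psma8, a core subunit known from testis, Psmb11, a core subunit known from thymus, and Psmc3ip, a meiotic recombination factor that is no proteasome subunit. All but 1 passed the filter on low counts and were tested. The exception, Psmb11, had 4 counts over all libraries.

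RNA was sequenced from hepatocytes of C57BL/6 mice in 14 libraries, 2 for each of 7 groups. Cells kept in BM were sampled on day 1 for the group BM 1D, on day 3 for BM 3D, and at 3 weeks for BM 3W. YAP-/- hepatocytes in BM (BM 3W YAP-/-) and hepatocytes in LBDXL (LBDXL 3W) were likewise sampled at 3 weeks. Freshly isolated YAP-/- hepatocytes (FH YAP-/-) and freshly isolated hepatocytes (FH) were not cultured. The title of the study concerns the keeping of hepatocyte functions in vitro by limiting tension-induced activation of YAP, a transcriptional co-activator of the Hippo pathway. The sources used here do not say what BM and LBDXL stand for, which YAP allele or driver was used, or if paired libraries stem from different animals or cultures, so p-values measure the spread between libraries, which may be technical.

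The proteasome is the main protease for ubiquitin-tagged proteins in the cytosol and nucleus. Its barrel-shaped 20S core holds rings of alpha and beta subunits, of which Psmb5, Psmb6 and Psmb7 carry the constitutive active sites, and the 19S particle at its ends binds, unfolds and feeds in substrates. Interferon exposure and immune cells are known for exchange of these active subunits for Psmb8, Psmb9 and Psmb10, which favours peptides suited to MHC class I. In mammalian cells a shortage of proteasome activity is known to raise the subunit genes together through the transcription factor NRF1, encoded by Nfe2l1.

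Sequences before the transcription starts of 5 genes are printed because the results turn on these genes: Psmd8, Psmd14 and Psmd5 rose in BM 1D and BM 3D against FH, and Psmb9 and Psmb8 are immunoproteasome genes. They were taken from RefSeq for GRCm38.p6, read 5′ to 3′ on the strand of the gene. Psmd8 has chr7:29180674-29180923 on the minus strand, Psmd14 chr2:61711444-61711693 on the plus strand, Psmd5 chr2:34870963-34871212 on the minus strand and Psmb8 chr17:34197945-34198194 on the plus strand, 250 bases each. The last few bases printed for Psmd5 lie inside its RefSeq gene, which spans chr2:34852087-34870965. For Psmb9, on the minus strand, the 225 bases of chr17:34187331-34187555 are the whole interval to the start of Tap1, which is transcribed the other way. Capitals mark matches on either strand to TGANNNNGC, the core of the antioxidant response element that NRF1 and its relative NRF2 bind, to the core of the interferon-stimulated response element, to TTCNNNGAA, the gamma-activated site, or to CCAAT.
Psmd8: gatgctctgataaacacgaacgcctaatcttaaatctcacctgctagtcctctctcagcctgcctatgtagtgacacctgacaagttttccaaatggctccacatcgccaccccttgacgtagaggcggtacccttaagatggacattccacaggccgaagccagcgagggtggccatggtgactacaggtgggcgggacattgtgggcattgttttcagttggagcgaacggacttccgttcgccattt
Psmd14: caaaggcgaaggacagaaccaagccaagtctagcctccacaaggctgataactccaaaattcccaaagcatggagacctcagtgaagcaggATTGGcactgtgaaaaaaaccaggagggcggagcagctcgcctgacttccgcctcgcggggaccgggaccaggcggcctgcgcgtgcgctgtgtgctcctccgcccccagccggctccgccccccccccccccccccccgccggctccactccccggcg
Psmd5: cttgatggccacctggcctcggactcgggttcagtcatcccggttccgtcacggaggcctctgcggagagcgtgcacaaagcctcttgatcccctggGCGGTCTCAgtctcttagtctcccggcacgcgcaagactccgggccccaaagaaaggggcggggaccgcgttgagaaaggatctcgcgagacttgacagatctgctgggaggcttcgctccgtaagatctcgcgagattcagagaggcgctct
Psmb9: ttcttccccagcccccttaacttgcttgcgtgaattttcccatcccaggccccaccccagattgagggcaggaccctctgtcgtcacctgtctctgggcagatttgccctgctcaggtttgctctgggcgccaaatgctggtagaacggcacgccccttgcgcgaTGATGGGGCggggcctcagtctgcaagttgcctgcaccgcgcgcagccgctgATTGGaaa
Psmb8: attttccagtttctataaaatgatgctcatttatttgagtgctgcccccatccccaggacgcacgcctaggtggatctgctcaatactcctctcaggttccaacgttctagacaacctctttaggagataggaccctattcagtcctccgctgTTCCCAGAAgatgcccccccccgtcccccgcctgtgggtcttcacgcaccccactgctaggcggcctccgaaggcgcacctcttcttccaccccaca
Psmd8 held no match to the 4 motifs, Psmd14 a CCAAT box, Psmd5 a TGANNNNGC match, Psmb9 a TGANNNNGC match and a CCAAT box, and Psmb8 a TTCNNNGAA match. RefSeq windows of 250 bases were at hand for 42 of the 50 genes, with 45 windows in all. TGANNNNGC was found in 40% of the 45 windows and in 35.2% of all 32851 windows. CCAAT was found in 33.3% and 33.8%, the interferon-stimulated response element core in 6.67% and 2.98%, and TTCNNNGAA in 4.44% and 7.02%, in the same order. A match is a description of letters and no binding was measured.

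Library depth ran from 15501005 to 21220365 counts. The proteasome genes held 0.456 to 0.646% of the counts of BM 1D and BM 3D libraries, 0.388 and 0.432% of BM 3W YAP-/- libraries, 0.328 and 0.374% of LBDXL 3W libraries, 0.386 and 0.421% of BM 3W libraries, 0.26 and 0.263% in FH YAP-/- libraries, and 0.25 and 0.253% in FH libraries. Yap1 itself was low in the libraries labelled YAP-/-. It had 6.66 and 7.74 CPM in BM 3W YAP-/-, against 80.2 and 95.5 CPM in BM 3W, and 23.1 and 26.5 CPM in FH YAP-/-, against 87.6 and 97.6 CPM in FH. The 8 hepatocyte markers, albumin among them, summed to between 3373 and 32250 CPM in BM 3W and at least 34610 CPM in every other library, with none at 0. The 15 immune markers summed to 64.8 to 353.3 CPM in BM 1D and BM 3D, 253 to 308.5 CPM in BM 3W YAP-/-, 5.01 to 5.6 CPM in LBDXL 3W, 2783 to 3506 CPM in BM 3W, 161 to 177 CPM in FH YAP-/- and 85.9 to 122.7 CPM in FH. Markers of stellate cells and fibroblasts, 7 in number, summed to 6051 to 6147 CPM in BM 3W and at most 476.7 CPM elsewhere, and 5 cholangiocyte markers to 4429 to 5130 CPM in BM 3W and at most 588.7 CPM elsewhere. The 6 endothelial markers summed to 3.62 and 137.6 CPM in the 2 LBDXL 3W libraries.

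CPM here are counts relative to a library size scaled by TMM, a method that sets most genes level between libraries. FPKM also divides by transcript length and was computed by the authors per library without such scaling. This matters because the libraries differed in makeup: TMM factors ran from 0.648 in FH to 1.691 in BM 3W. With libraries scaled by total counts instead, the median log2 change of all 14100 tested genes was 1.08 in BM 1D, 1.11 in BM 3D, 1.46 in BM 3W and 0.57 in LBDXL 3W against FH, where TMM gave 0.17, 0.17, 0.17 and 0.09. It was -0.84 in LBDXL 3W and -0.66 in BM 3W YAP-/- against BM 3W, where TMM gave -0.02 and -0.03. Another scaling, added after seeing the data, set the summed counts of the 14 constitutive 20S subunits level, so that it shows which genes departed from the core. Under it the core subunits as a set are level by construction. A lack of calls among them there says nothing on the level of the core. "Rose" and "fell" below mean an adjusted p under 0.05, over 14100 genes, by the quasi-likelihood test of edgeR with TMM, and errors of log2 fold changes are standard errors. Comparisons against FH share the same 2 FH libraries, and those against BM 3W the same 2 BM 3W libraries.

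**Figure D1:**
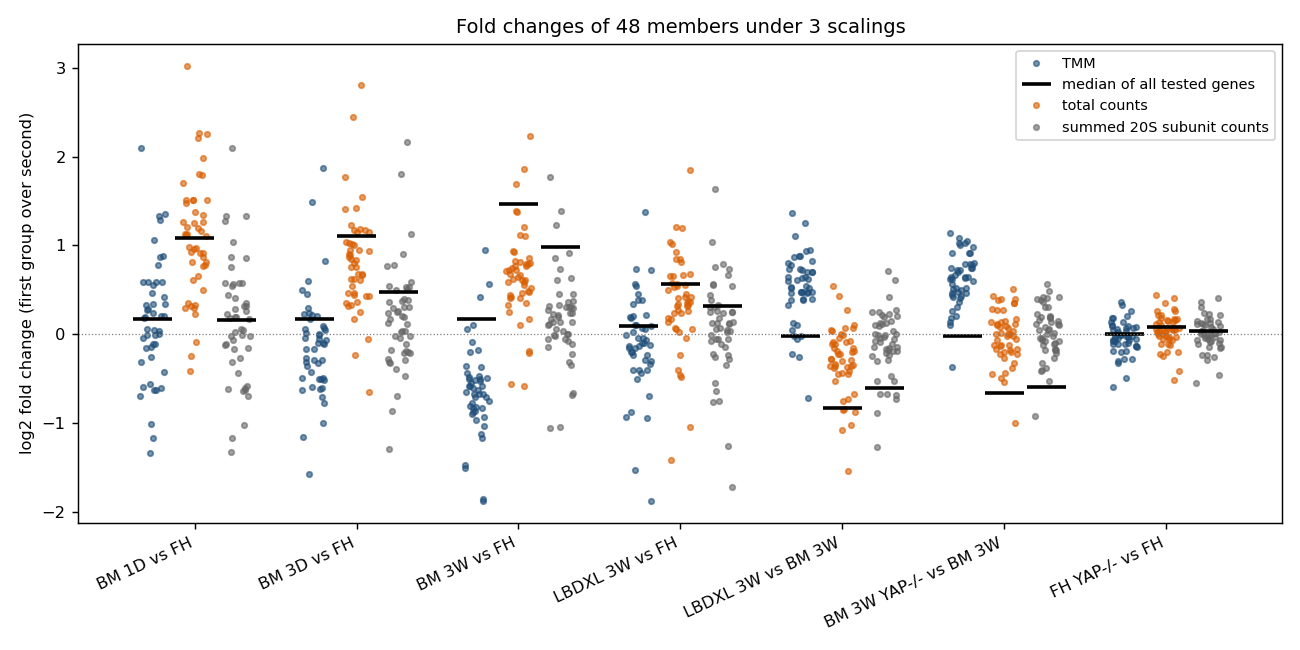
Log2 fold changes of 48 of the 49 tested genes (Psmc3ip left out) in 7 comparisons, first group over second, under scaling by TMM, by total counts and by the summed 20S subunit counts. Each dot is a gene and each black bar the median of all tested genes. In BM 3W against FH the bulk of the genes lay below 0 with TMM and above 0 with total counts, while FH YAP-/- against FH stayed near 0 under each.

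The level of the constitutive 20S core subunits relative to FH depended on the scaling. Their summed FPKM was 1228 and 1259 in BM 1D, 1105 and 1106 in BM 3D, 858.1 and 1150 FPKM in BM 3W YAP-/-, 736.5 and 1002 in LBDXL 3W, 934.4 and 1066 FPKM in BM 3W, 765.6 and 789.9 in FH YAP-/-, and 693.1 and 711.4 in FH. Every cultured library thus stood above both FH libraries on this scale, which sets total fragments level. With total counts the median log2 change of the 14 against FH was 0.98 in BM 1D, 0.76 in BM 3D, 0.62 in BM 3W and 0.29 in LBDXL 3W. The median of all tested genes was higher in each, at 1.08, 1.11, 1.46 and 0.57. Psmb4, a structural beta subunit, was the most abundant of the 14 in each library, at 159.7 and 168.3 FPKM in BM 1D against 78.7 and 85.1 FPKM in FH. The lowest in each by FPKM was Psma3, an alpha subunit, at 16 and 22.5 FPKM in BM 1D against 12.4 and 12.7 FPKM in FH. In CPM, which does not divide by length, it was not the lowest. It averaged 83.5 CPM in FH, where Psma2 averaged 79.2 CPM and 47.7 FPKM and Psmb5 40.3 CPM. Psma3 overlaps another RefSeq gene, 3110056K07Rik, as 14 of the 50 genes overlap some gene, so its level is uncertain.

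**Figure D2:**
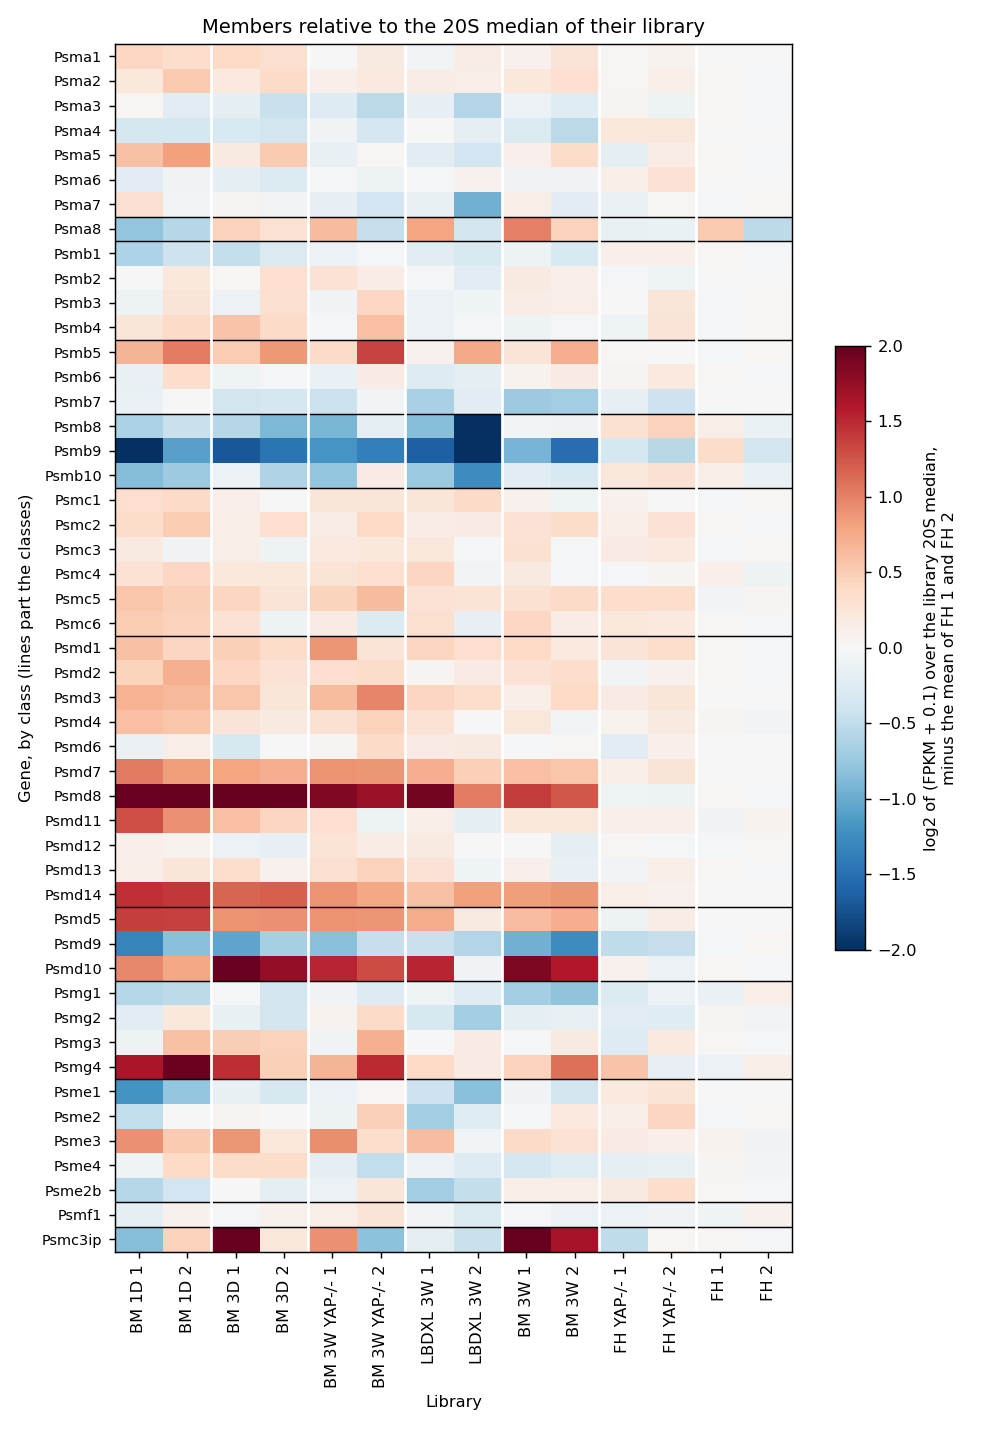
Level of 49 genes in each of 14 libraries relative to the median of the 14 constitutive 20S subunits of the same library, as log2 of FPKM plus 0.1, minus the mean of FH 1 and FH 2. Rows are genes by class, red is higher and blue lower relative to the core. Psmd8, Psmd14 and Psmd10 are among the genes red in most cultured libraries, and Psmb9 and Psmd9 among the blue. Psmg4 is red in BM 1D as well, at a mean of 21.29 FPKM against 3.75 FPKM in FH, where it averaged 33.5 counts.

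In BM 1D against FH, 7 of the 49 tested genes rose and 5 fell, where 23.6% of all tested genes rose and 20.2% fell. Of the 17 subunits of the 19S particle 5 rose and none fell (median log2 change 0.42), and of the 14 constitutive core subunits 1 rose and 1 fell (median 0.05), beside a median of 0.17 over all genes. The share of 19S subunits that rose was near that of all genes, and the 19S particle and the core were not tested against each other. Those that rose were Psmd8, Psmd14, Psmd11, Psmd7, Psmd4, the chaperone Psmd5 and the core subunit Psma5, and those that fell were Psme1, Psmd9, Psmb1, Psmb9 and Psmg1. Without BM 1D 1 or FH 1 the number risen was 4, and 1 to 3 fell when any 1 library was left out. With total counts 37 of the 49 rose and none fell, beside 50.1% and 9.58% of all genes. All 17 subunits of the 19S particle and 12 of the 14 core subunits were among the 37. In bulk RNA such a change cannot be told apart from a change in the mix of cells.

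Psmd8, a non-ATPase subunit of the 19S lid, changed most in BM 1D against FH. It had 558.9 and 642.7 CPM in BM 1D, 438.6 and 588.5 CPM in BM 3D, 418.4 and 402.6 CPM in BM 3W YAP-/-, 413.5 and 311.9 CPM in LBDXL 3W, 214.9 and 200.6 CPM in BM 3W, 128.3 and 116 CPM in FH YAP-/-, and 142.4 and 138.1 CPM in FH. All 10 cultured libraries lay above all 4 fresh ones. The log2 fold change was 2.10 ± 0.25 in BM 1D (adjusted p = 0.000104), 1.87 ± 0.25 in BM 3D (adjusted p = 0.000274) and 1.37 ± 0.24 in LBDXL 3W (adjusted p = 0.00315), each against FH. These 3 calls held under every alternative and without any 1 library, with log2 values of 2.06 to 3.02 in BM 1D, 1.84 to 2.80 in BM 3D and 1.32 to 1.85 in LBDXL 3W over the alternatives. In BM 3W the value was 0.57 ± 0.24 (adjusted p = 0.0624), but 1.86 ± 0.25 with total counts and 1.39 ± 0.35 relative to the core, both past the threshold. Per transcript length, Psmd8 stood at 4.02 and 5.24 times the median core subunit of the same library in BM 1D, 4.4 and 4.84 times in BM 3D, 3.71 and 3.39 times in BM 3W YAP-/-, 3.84 and 2.07 times in LBDXL 3W, 2.7 and 2.43 times in BM 3W, 0.959 and 0.956 times in FH YAP-/-, and 1.05 and 0.99 times in FH. No other RefSeq gene overlaps Psmd8 at chr7:29174187-29180673.

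Psmd14, the deubiquitinase of the lid that removes ubiquitin chains from substrates, followed a similar order at lower levels. It had 141.4 and 107.7 CPM in BM 1D, 85.7 and 87.6 CPM in BM 3D, 70.5 and 75 CPM in BM 3W YAP-/-, 58.8 and 86.3 CPM in LBDXL 3W, 52.3 and 52.4 CPM in BM 3W, 49.8 and 46.8 CPM in FH YAP-/-, and 48.6 and 49.3 CPM in FH. It rose by 1.35 ± 0.21 in BM 1D (adjusted p = 0.000538) and by 0.82 ± 0.21 in BM 3D (adjusted p = 0.00936) against FH on the log2 scale. The BM 3D call was lost without FH 1 or without FH 2. The values in BM 3W (0.10 ± 0.21) and LBDXL 3W (0.57 ± 0.21) did not pass, though relative to the core Psmd14 rose in both, by 0.91 ± 0.22 and 0.73 ± 0.22.

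Psmd11, a scaffold subunit of the lid, had 248.1 and 167.7 CPM in BM 1D, 114.5 and 115.8 CPM in BM 3D, 98.6 and 82.8 CPM in BM 3W YAP-/-, 87.5 and 120.9 CPM in LBDXL 3W, 66.2 and 67.1 CPM in BM 3W, and 95.7 and 104 CPM in FH. It rose by 1.06 ± 0.23 in BM 1D against FH (adjusted p = 0.00383), which held in every alternative, and fell by 0.58 ± 0.23 in BM 3W (adjusted p = 0.047). Psmd7, the partner of Psmd14 in the lid, had 176.1 and 112 CPM in BM 1D and 76.5 and 79.9 CPM in FH, a rise of 0.88 ± 0.22 (adjusted p = 0.00797) that was lost without BM 1D 1 or FH 1. Its values against FH in BM 3D (0.46 ± 0.22), BM 3W (-0.18 ± 0.22) and LBDXL 3W (0.34 ± 0.22) did not pass. Psmd7 rose in each of these with total counts, beside 53.7%, 65.8% and 25.5% of all genes. Psmd11 likewise rose in BM 3W with total counts, so the direction of its change there depended on the scaling. With TMM none of the 6 ATPases that form the motor of the 19S base, Psmc1 to Psmc6, rose or fell in BM 1D, with a median log2 change of 0.30. With total counts all 6 rose there, where 50.1% of all genes did.

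Of the 3 chaperones that assemble the 19S base, 1 rose and 1 fell in BM 1D against FH. Psmd5 had 101.5 and 86.8 CPM in BM 1D, 55.7 and 60.9 CPM in BM 3D, 57.4 and 67.2 CPM in BM 3W YAP-/-, 51.3 and 54.4 CPM in LBDXL 3W, 34.5 and 38 CPM in BM 3W, 35.3 and 39.7 CPM in FH YAP-/-, and 37.9 and 39.1 CPM in FH. It rose by 1.29 ± 0.17 in BM 1D against FH (adjusted p = 0.000199), which held in every alternative, and by 0.60 ± 0.17 in BM 3D (adjusted p = 0.0164), which was lost without BM 3D 2, FH 1 or FH 2. Its values in BM 3W, -0.09 ± 0.17 (adjusted p = 0.675), and in LBDXL 3W, 0.46 ± 0.17 (adjusted p = 0.0807), did not pass. Both passed as rises with total counts, beside 65.8% and 25.5% of all genes. Psmd10, also known as gankyrin, had 22.5 and 15.9 CPM in BM 1D, 33.9 and 28.8 CPM in BM 3D, 23.4 and 19.8 CPM in BM 3W, 25.1 and 11.8 CPM in LBDXL 3W, and 11.6 and 10.8 CPM in FH. It rose by 1.49 ± 0.33 in BM 3D (adjusted p = 0.00472), which held in every alternative, and by 0.95 ± 0.33 in BM 3W (adjusted p = 0.0275), which was lost without any 1 library of either group. Psmd10 overlaps Atg4a, and the sources used here do not say if counting used the strand of reads.

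Psmd9, the other chaperone of the base, was lower in culture with TMM. It had 20.1 and 25.4 CPM in BM 1D, 18 and 27.9 CPM in BM 3D, 14.7 and 13.1 CPM in BM 3W, 28.8 and 43.2 CPM in LBDXL 3W, 34.4 and 33.4 CPM in FH YAP-/-, and 49.2 and 53.2 CPM in FH. It fell by 1.17 ± 0.29 in BM 1D (adjusted p = 0.00756), by 1.16 ± 0.29 in BM 3D (adjusted p = 0.00867) and by 1.88 ± 0.29 in BM 3W (adjusted p = 0.000315). With total counts the value was still negative in all 3 comparisons but passed the threshold in none, and relative to the core it passed in all 3. Without BM 1D 1 or BM 3D 1 the calls of those days were lost.

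**Figure D3:**
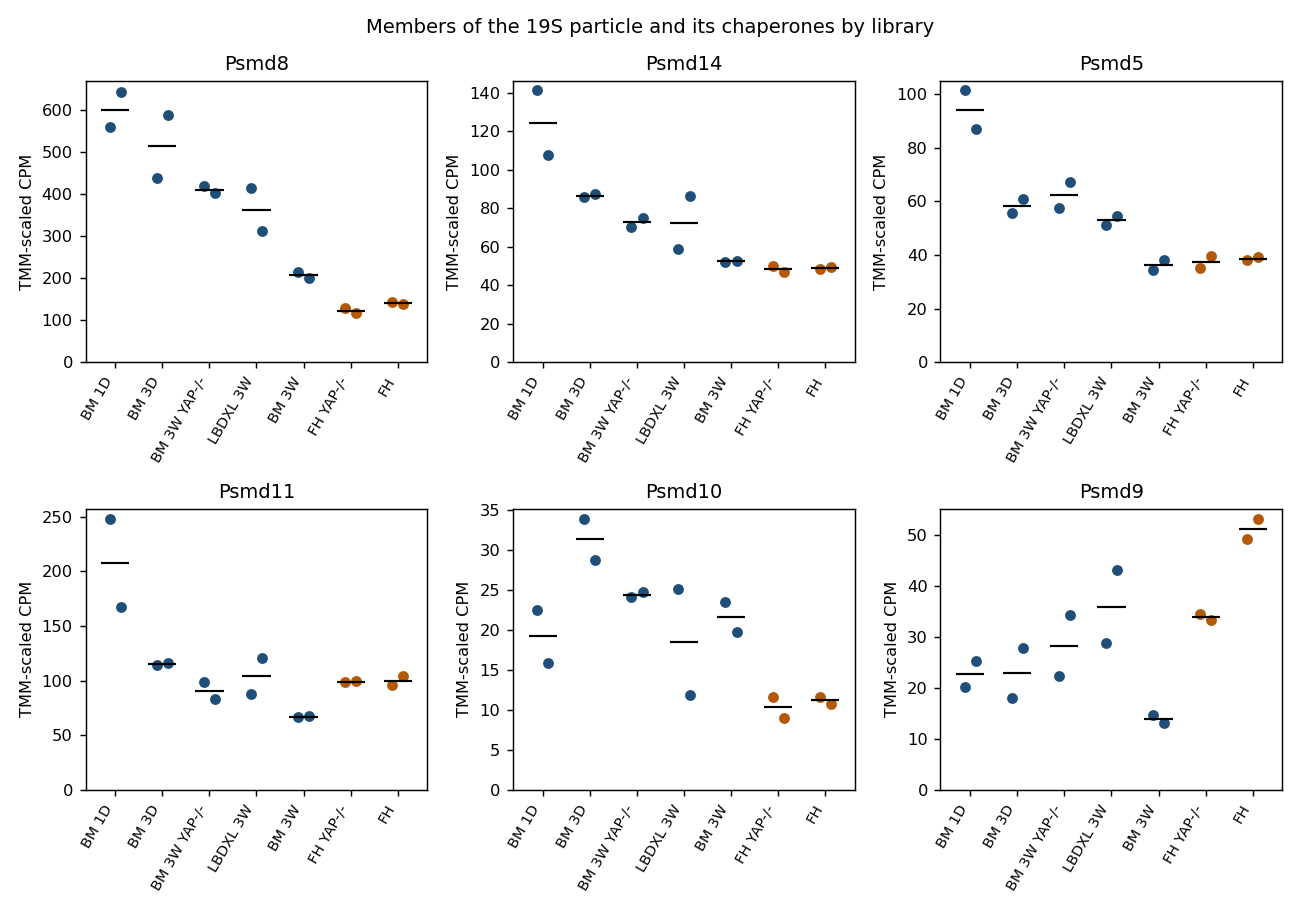
TMM-scaled CPM of the 19S subunits Psmd8, Psmd14 and Psmd11 and the 19S chaperones Psmd5, Psmd10 and Psmd9 in each library of 7 groups. Dots are libraries, blue for cultured and orange for fresh cells, and bars are means of 2 libraries. Psmd8 lies above the fresh libraries in each cultured library, at 200.6 CPM or more against 142.4 CPM or less, and Psmd9 lies below the FH libraries in each.

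After 3 days of culture 4 genes were higher than in FH and 8 lower. The rises were Psmd8, Psmd10, Psmd14 and Psmd5 and the falls Psmd9, Psmb1, Psmb8, Psmb9, Psma6, Psma4, Psme1 and Psmg1, at 22.5% risen and 17.9% fallen among all genes. Without FH 1 or FH 2 the number risen was 2, and 0 to 4 fell when any 1 library was left out. Of the falls, 5 turned to a positive value in some alternative, among them total counts, with which 29 genes rose and none fell, beside 53.7% and 7.36% of all genes. Psmb8 fell by 1.01 ± 0.29 (adjusted p = 0.017) and Psmb9 by 1.58 ± 0.47 (adjusted p = 0.0209), and neither call held with total counts or relative to the core.

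After 3 weeks in BM most of the proteasome genes were lower than in FH with TMM, and most were higher with total counts. With TMM 28 fell and 2 rose of 49, where 26.1% of all genes fell and 33% rose; with total counts 28 rose and none fell, where 65.8% of all genes rose and 9.67% fell. Relative to the summed core, 5 rose (Psmc3ip, Psmd10, Psmd14, Psmd5 and Psmd8) and 3 fell (Psmb7, Psmd9 and Psmg1), beside 48.4% and 12.4% of all genes. With TMM the falls took 9 of 14 core subunits (median log2 change -0.68), 8 of 17 subunits of the 19S particle (median -0.52), 4 of 5 activators, 2 of 4 chaperones of the core and all 3 immunoproteasome subunits. Of the 30 calls, 24 changed sign under some alternative, and 10 held without each library in turn. When any 1 library of BM 3W or FH was left out, 12 to 18 fell and 0 or 1 rose.

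Psmb7, the constitutive subunit with trypsin-like activity, fell furthest among the core subunits. It had 45.5 and 43.4 CPM in BM 3W, against 123 and 130 CPM in FH, a fall of 1.51 ± 0.28 (adjusted p = 0.000971) on the log2 scale with TMM and of 0.69 ± 0.22 relative to the core (adjusted p = 0.018). With total counts the value was -0.22 ± 0.28 (adjusted p = 0.485). Psmg1, a chaperone of the alpha ring, had 7.2 and 6.76 CPM in BM 3W, against 18.2 and 20.7 CPM in FH, a fall of 1.48 ± 0.22 (adjusted p = 0.000238) and of 0.66 ± 0.27 relative to the core (adjusted p = 0.0486). Psme4, which encodes the activator PA200, had 133.3 and 131.2 CPM in BM 3W, against 295.2 and 283 CPM in FH. It fell by 1.13 ± 0.19 with TMM (adjusted p = 0.000575) and had 0.17 ± 0.20 with total counts. Psmc3ip, which is no subunit, had 1.89 and 0.868 CPM in BM 3W, against 0.159 and 0.158 CPM in FH, a rise of 3.07 ± 1.02 (adjusted p = 0.0237) that was lost without BM 3W 1, FH 1 or FH 2. It had 2 and 2 counts in FH, against 55 and 29 counts in BM 3W. Counts so low in FH do not pass the filter, so Psmc3ip was tested because of libraries where it was higher, and its rise is only a description.

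In LBDXL 3W few of the genes differed from FH. There 1 gene rose (Psmd8) and 4 fell (Psmb8, Psme1, Psmb9 and Psme2b) of 49, where 11.7% of all genes rose and 9.6% fell. No constitutive core subunit passed, and their median log2 change was -0.17 beside 0.09 for all genes. Psme1, a subunit of the PA28 activator that interferon induces, had 54.4 and 47 CPM in LBDXL 3W, against 90.5 and 96.4 CPM in FH, a fall of 0.88 ± 0.18 (adjusted p = 0.00682) that was lost without FH 2, with total counts and relative to the core. Psme2b is a near-identical copy of Psme2, so its value, -0.93 ± 0.26 (adjusted p = 0.0256), is uncertain, and it was lost without FH 1, FH 2 or LBDXL 3W 1. With total counts 6 genes rose and 2 fell, beside 25.5% and 5.83% of all genes. The number fallen was 2 without FH 1, FH 2 or LBDXL 3W 1, and 6 without LBDXL 3W 2, and the number risen was 2 without LBDXL 3W 1 or LBDXL 3W 2.

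Several 19S genes were lower at later times in BM, again with TMM. In BM 3D against BM 1D Psmd5 fell, by 0.69 ± 0.17 (adjusted p = 0.0407), and none rose, with 1.6% of all genes fallen and 3.67% risen. The call of Psmd5 was lost without any 1 library, while without BM 1D 2 Psmd11 was called lower. With all libraries 1 gene was higher and 10 were lower at an unadjusted p under 0.05, where 3142 of all 14100 genes passed in either direction. DESeq2's Wald test gave 1 higher and 3 lower at an adjusted p under 0.05, beside 8.04% and 4.38% of all genes. In BM 3W against BM 3D 10 fell and none rose, beside 10.9% and 13.5% of all genes. None of the 49 was higher and 22 were lower at an unadjusted p under 0.05, where 5334 of all 14100 genes passed in either direction. When any 1 library was left out, 2 to 4 fell. Psmd8 fell by 1.31 ± 0.24 (adjusted p = 0.00362) and Psme4 by 1.08 ± 0.19 (adjusted p = 0.00303), the 2 calls that held without each library and with total counts. They did not pass relative to the core, where none of the 49 passed.

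Between the 2 kinds of culture at 3 weeks, most core and 19S genes were higher in LBDXL 3W than in BM 3W with TMM. There 21 rose and none fell, beside 21.1% risen and 23.7% fallen among all genes. At an unadjusted p under 0.05, 27 were higher and 2 lower, where 7377 of all 14100 genes passed in either direction. Psmd9 rose by 1.37 ± 0.29 (adjusted p = 0.00354), with 28.8 and 43.2 CPM in LBDXL 3W against 14.7 and 13.1 CPM in BM 3W. Psmg1 rose by 1.25 ± 0.22 (adjusted p = 0.0013), with 14.2 and 19 CPM in LBDXL 3W against 7.2 and 6.76 CPM in BM 3W, and Psmb7 by 1.10 ± 0.28 (adjusted p = 0.00891). With total counts none rose and 7 fell, beside 8.05% and 47.2% of all genes. The number risen was 4 without BM 3W 2, 7 without LBDXL 3W 2, 10 without BM 3W 1 and 25 without LBDXL 3W 1.

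Relative to the core, 4 genes fell in LBDXL 3W against BM 3W and 1 rose, beside 31.4% and 8.62% of all genes. Psmb8 fell by 1.27 ± 0.35 (adjusted p = 0.0148), Psme2 by 0.69 ± 0.22 (adjusted p = 0.0271) and its copy Psme2b by 0.89 ± 0.30 (adjusted p = 0.0323), while Psmd9 rose by 0.71 ± 0.25 (adjusted p = 0.0412). Psmc3ip fell as well, by 2.84 ± 1.03 (adjusted p = 0.0465), but it had only 7 and 3 counts in LBDXL 3W. With TMM the value of Psmb8 was -0.72 ± 0.29 (adjusted p = 0.0624). The immune markers summed to 5.01 to 5.6 CPM in LBDXL 3W and 2783 to 3506 CPM in BM 3W, and their part in these differences was not tested.

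Loss of YAP in BM culture went with higher proteasome genes with TMM. In BM 3W YAP-/- against BM 3W 19 rose and none fell, beside 15% risen and 16.6% fallen among all genes. At an unadjusted p under 0.05, 30 were higher and none lower, where 6217 of all 14100 genes passed in either direction. Psmg1 had 15.3 and 15.6 CPM in BM 3W YAP-/-, against 7.2 and 6.76 CPM in BM 3W, a rise of 1.14 ± 0.22 (adjusted p = 0.00385) that held without each library. Psmd13, a lid subunit, rose by 0.91 ± 0.19 (adjusted p = 0.00588), with 79.3 and 108.7 CPM in BM 3W YAP-/- against 51.9 and 48.3 CPM in BM 3W. Psmd3, another lid subunit, rose by 1.08 ± 0.25 (adjusted p = 0.00826), with 106.8 and 143.7 CPM against 51.1 and 67.5 CPM, and Psmb7 by 1.03 ± 0.28 (adjusted p = 0.018). With total counts and relative to the core 0 of the 49 passed in either direction, where 35.8% and 23.9% of all genes fell and 5.66% and 5.04% rose. The median log2 changes of the 49 were -0.00 and 0.04. For the core subunits, which are part of the 49, a value near 0 relative to the core is built into that scaling. The number risen was 4 without BM 3W 2, 5 without BM 3W YAP-/- 2 and 8 without BM 3W 1. BM 3W held the highest immune, fibroblast and cholangiocyte marker sums, and their part in the difference was not tested.

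In fresh cells loss of YAP gave no call. In FH YAP-/- against FH none of the 49 rose or fell by edgeR, beside 0.489% risen and 0.454% fallen among all genes. None was under an unadjusted p of 0.05 in that test, where 1245 of all 14100 genes were. DESeq2's Wald test called none of the 49, beside 1.48% risen and 1.18% fallen among all genes. A fit of these 2 groups alone called 3 higher and 4 lower, beside 18.1% and 19.4% of the 11356 genes tested there. The effect of YAP loss was larger in BM 3W than in fresh cells for 10 genes by the interaction term and smaller for none, beside 8.04% and 8.84% of all genes. None of these 10 passed with total counts or relative to the core. The number was 0 without FH YAP-/- 1, FH YAP-/- 2 or FH 2, 1 or 2 without FH 1, BM 3W 1, BM 3W 2 or BM 3W YAP-/- 2, and 8 without BM 3W YAP-/- 1.

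The immunoproteasome subunits were low beside their constitutive counterparts in every library. Psmb8 had 16.3 and 16.1 FPKM in BM 1D, 15.1 and 11.2 FPKM in BM 3D, 9.6 and 18 FPKM in BM 3W YAP-/-, 9.23 and 4.93 FPKM in LBDXL 3W, 19 and 21 FPKM in BM 3W, 19.6 and 21.1 FPKM in FH YAP-/-, and 15.9 and 13.6 FPKM in FH. Its counterpart Psmb5, the chymotrypsin-like site, had 110.6 and 121 FPKM in BM 1D, 85.9 and 104.1 FPKM in BM 3D, 64.2 and 143.2 FPKM in BM 3W YAP-/-, 47.7 and 101.9 FPKM in LBDXL 3W, 63.6 and 99.4 FPKM in BM 3W, 43.6 and 41.7 FPKM in FH YAP-/-, and 38.5 and 41.1 FPKM in FH. Psmb5 was higher in every cultured library than in every fresh one on this scale. Its value did not pass in any comparison with FH under TMM, at 0.87 ± 0.56 in BM 1D (adjusted p = 0.235) and 0.74 ± 0.56 in LBDXL 3W (adjusted p = 0.389).

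**Figure D4:**
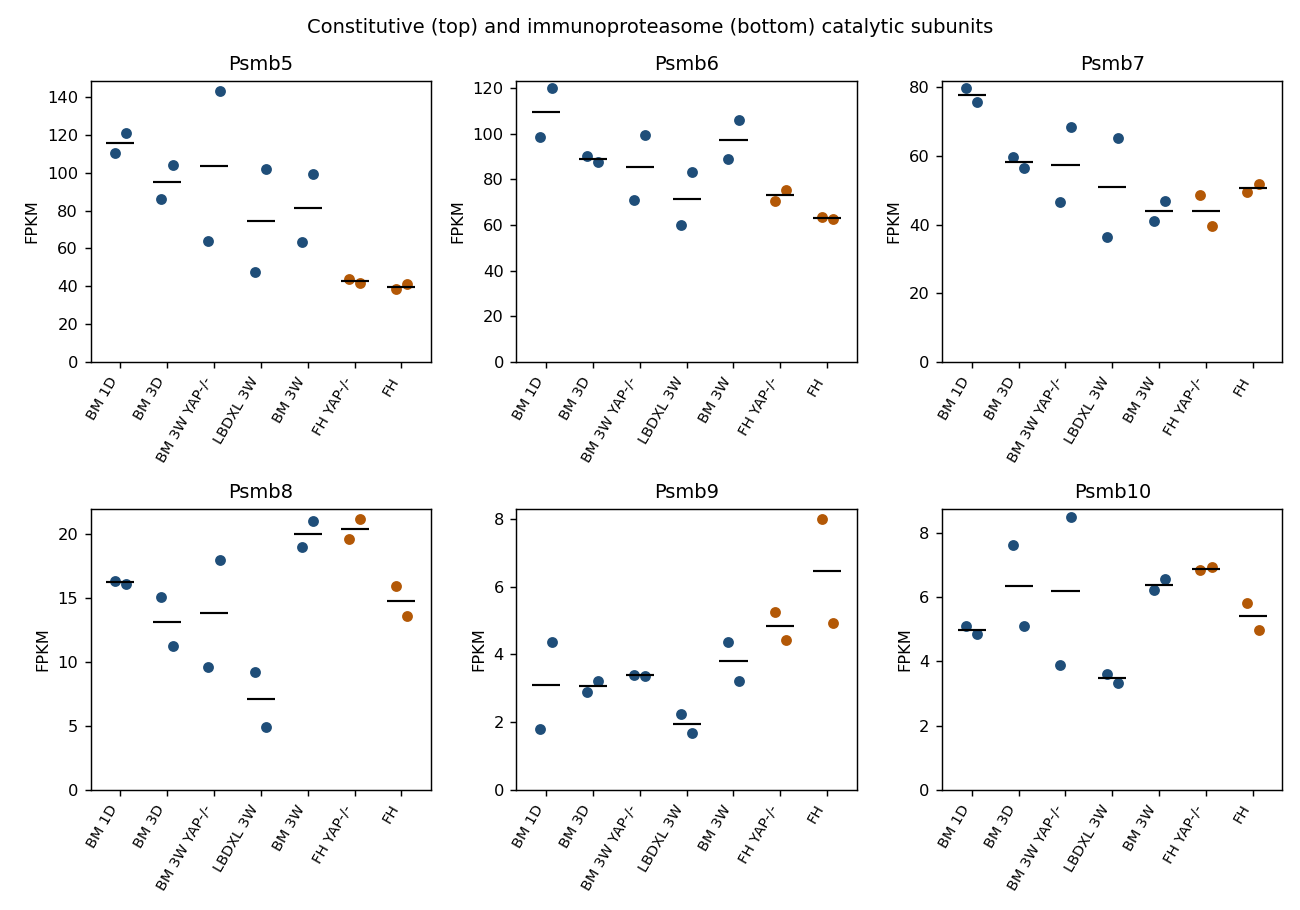
FPKM of the constitutive catalytic subunits Psmb5, Psmb6 and Psmb7 (top) and of the immunoproteasome subunits Psmb8, Psmb9 and Psmb10 (bottom) in each library of 7 groups. Dots are libraries, blue for cultured and orange for fresh cells, and bars are means of 2 libraries. The lowest Psmb8 library is LBDXL 3W 2, at 4.93 FPKM, and the highest Psmb9 library is FH 1, at 7.99 FPKM.

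A ratio within a library does not depend on the scaling between libraries. The log2 ratio of Psmb8 to Psmb5, in FPKM, was -2.84 ± 0.11 in BM 1D, -2.86 ± 0.50 in BM 3D, -2.87 ± 0.18 in BM 3W YAP-/-, -3.37 ± 1.42 in LBDXL 3W, -1.99 ± 0.35 in BM 3W, -1.07 ± 0.12 in FH YAP-/- and -1.44 ± 0.23 in FH (mean ± SD, n = 2). Each cultured library lay below each fresh one in FPKM. In raw counts the groups overlapped, with BM 3W 1 at -0.89 and FH 2 at -0.90. The 2 LBDXL 3W libraries, at -2.37 and -4.37, were farther apart than those of any other group.

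Psmb9, the counterpart of the caspase-like Psmb6, had 1.81 and 4.38 FPKM in BM 1D, 2.89 and 3.23 FPKM in BM 3D, 3.4 and 3.38 FPKM in BM 3W YAP-/-, 2.24 and 1.67 FPKM in LBDXL 3W, 4.38 and 3.22 FPKM in BM 3W, 5.26 and 4.43 FPKM in FH YAP-/-, and 7.99 and 4.93 FPKM in FH. Its log2 ratio to Psmb6 was -5.28 ± 0.70 in BM 1D, -4.86 ± 0.14 in BM 3D, -4.63 ± 0.35 in BM 3W YAP-/-, -5.19 ± 0.64 in LBDXL 3W, -4.69 ± 0.49 in BM 3W, -3.92 ± 0.24 in FH YAP-/- and -3.33 ± 0.48 in FH (SD, n = 2). Here each cultured library lay below each fresh one in FPKM and in raw counts. Psmb10 did not show such a split: its log2 ratio to Psmb7 was -3.96 ± 0.00 in BM 1D, -3.22 ± 0.36 in BM 3D, -3.29 ± 0.40 in BM 3W YAP-/-, -3.81 ± 0.67 in LBDXL 3W, -2.78 ± 0.09 in BM 3W, -2.67 ± 0.22 in FH YAP-/- and -3.23 ± 0.20 in FH (SD, n = 2). BM 3W exceeded FH here, with ratios of -2.72 and -2.84 against -3.09 and -3.37.

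**Figure D5:**
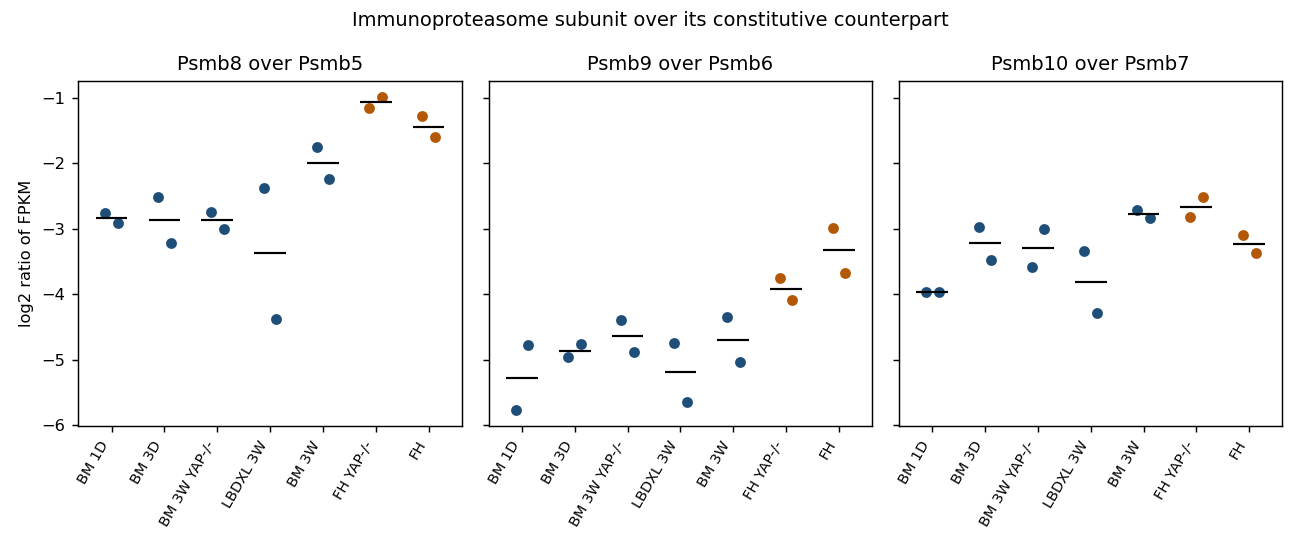
Log2 ratio in FPKM, not raw counts, of each immunoproteasome subunit to the constitutive subunit it replaces, per library in 7 groups. Dots are libraries, blue for cultured and orange for fresh cells, and bars are means of 2 libraries. For Psmb8 over Psmb5 and Psmb9 over Psmb6 all cultured libraries lie below all fresh ones, and for Psmb10 over Psmb7 they overlap.

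By the test against FH, the falls in LBDXL 3W were the ones that scaling left in place. Psmb8 fell by 1.53 ± 0.29 (adjusted p = 0.00456), by 1.05 ± 0.33 with total counts (adjusted p = 0.0321) and by 1.26 ± 0.35 relative to the core (adjusted p = 0.0291). That call was lost in limma's test on unfiltered log2(FPKM + 1) and in no other alternative. Psmb9 fell by 1.88 ± 0.48 (adjusted p = 0.0185), by 1.41 ± 0.48 with total counts (adjusted p = 0.0441) and by 1.72 ± 0.48 relative to the core (adjusted p = 0.0301), though the call was lost without FH 1 or LBDXL 3W 1. Psmb10 had -0.95 ± 0.34 (adjusted p = 0.0709). In BM 1D Psmb9 fell by 1.34 ± 0.47 (adjusted p = 0.0384), a call lost with total counts and without BM 1D 1, FH 1 or FH 2, and Psmb8 (-0.59 ± 0.28) and Psmb10 (-0.69 ± 0.34) did not pass. In BM 3W all 3 fell with TMM, by 0.81 ± 0.29 for Psmb8 (adjusted p = 0.0302), 1.86 ± 0.47 for Psmb9 (adjusted p = 0.00619) and 0.89 ± 0.34 for Psmb10 (adjusted p = 0.0394), and none passed with total counts or relative to the core. With total counts Psmb8 and Psmb10 were positive there. The immune markers summed to 5.01 to 5.6 CPM in LBDXL 3W and 85.9 to 122.7 CPM in FH. Among them Cd3e, Cd79a, Nkg7, H2-Aa and Clec4f were at 0 counts in LBDXL 3W, and the markers' part in the lower immunoproteasome genes was not tested.

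Tap1, which carries peptides into the endoplasmic reticulum and shares the printed interval with Psmb9, did not follow it on the first day. It averaged 31.7 ± 4.63 CPM in BM 1D, 10.4 ± 1.80 CPM in BM 3D, 12.6 ± 0.87 CPM in BM 3W, 9.02 ± 0.03 CPM in LBDXL 3W and 13.3 ± 1.64 CPM in FH (SD, n = 2). Tap1 rose by 1.25 ± 0.24 in BM 1D (adjusted p = 0.00173), while Psmb9 fell there with TMM. In LBDXL 3W Tap1 had -0.56 ± 0.24 (adjusted p = 0.119).

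The interferon response list holds 18 targets and mediators of interferon. In BM 1D against FH 11 rose and none fell (median log2 change 1.24), where 23.6% of all genes rose and 20.2% fell, and Irf1 rose by 0.85 ± 0.21 (adjusted p = 0.00675). In BM 3D 2 rose and 4 fell (median -0.19), where 22.5% of all genes rose and 17.9% fell, and in BM 3W 3 rose and 4 fell (median -0.10), where 33% rose and 26.1% fell. In LBDXL 3W against FH none rose and 12 fell (median -1.47), where 11.7% of all genes rose and 9.6% fell, and with total counts 2 rose and 6 fell, beside 25.5% and 5.83%. The 12 genes of MHC class I antigen presentation gave 1 rise (Tap1) and 3 falls in BM 1D, no rise and 2 falls in BM 3D, no rise and 5 falls in BM 3W, and no rise and 4 falls in LBDXL 3W against FH, beside the same shares of all genes.

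Genes that control or accompany the proteasome were described from lists as well. Nfe2l1 averaged 136.9 ± 13.4 CPM in BM 1D and 198.3 ± 3.88 CPM in FH (SD, n = 2). With TMM it fell by 0.53 ± 0.19 (adjusted p = 0.0405), and it did not pass in any of the other comparisons. Its value with total counts is not given here. The median of all genes in BM 1D against FH was 1.08 with total counts and 0.17 with TMM, so the direction of this fall may depend on the scaling. Of the 15 genes of the NRF1 pathway and p97, 4 rose and 4 fell in BM 1D against FH, near the 23.6% and 20.2% of all genes. In BM 3D 3 rose and 2 fell, in BM 3W 3 rose and 4 fell, and in LBDXL 3W 2 rose and none fell, beside 22.5% and 17.9%, 33% and 26.1%, and 11.7% and 9.6% of all genes. Of 16 proteasome components and cofactors without a Psm name, 6 rose and none fell in BM 1D, beside the same 23.6% and 20.2%, including Adrm1, the ubiquitin receptor of the base, by 0.90 ± 0.30 (adjusted p = 0.0326). In LBDXL 3W against BM 3W 9 of the 16 rose and none fell with TMM, where 21.1% of all genes rose and 23.7% fell. With total counts none of them rose and 6 fell, where 8.05% and 47.2% of all genes did. Against FH in BM 1D, 2 of 6 ubiquitin and E1 genes rose and none fell, and 5 of 9 heat shock genes rose and 1 fell, beside 23.6% and 20.2% of all genes. In FH YAP-/- against FH, where no proteasome gene passed, 5 of the 9 heat shock genes rose and none fell, beside 0.489% and 0.454% of all genes.

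The 2 libraries of a cultured group differed more than those of a fresh group. Psmb5 was higher in library 2 than in library 1 of each of the 5 cultured groups, at 103.7 and 30.9 CPM in LBDXL 3W and 106.4 and 38.5 CPM in BM 3W YAP-/-. In all, 7 genes were higher in library 2 of each cultured group and 4 in library 1. The log2 difference of library 2 from library 1 had a Pearson r with the GC content of the transcript, over the 49 genes, of 0.218 to 0.499 in cultured groups and of 0.00485 and 0.103 in FH YAP-/- and FH. The genes share their libraries, so this is a description, and its part in the results was not tested.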

How the data were processed

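The authors deposited raw counts per gene and FPKM values for 14 libraries of poly(A) RNA, made with a stranded kit and paired-end reads per the labels' protocols. Trimmomatic, HISAT2, Cufflinks, HTSeq, DESeq and GRCm38.p6 are named in the submitters' processing notes, without versions, and the use of strand in counting is not stated there. In both, 27 gene symbols altered by a spreadsheet were restored. The deposited counts were tested with edgeR 4.0.16 (R 4.3.3): TMM, a filter on low counts by group, 1 fit over all 7 groups, the quasi-likelihood test, and Benjamini-Hochberg adjustment over 14100 genes at 0.05. The alternatives were other scalings, DESeq2 1.42.0, limma 3.58.1 on log2 FPKM (pseudocount 1 or 0.1, genes averaging 0.5 FPKM or more, or unfiltered), no filter on counts, the compared groups alone, a replicate block and each library left out. The scaling to the 20S subunits was added after seeing the data. The fit was tested on simulated data. Every gene of the family may be named, and of each other list the 4 genes of smallest p per comparison, with Tap1, Nfe2l1 and Irf1. The genes and lists were chosen with earlier results of these data known. Of 169 list genes, 168 were found. Some single-gene values are not reported here.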

Additional observations from a re-analysis of the deposited data

Results flagged for a closer look

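The effect of YAP loss differed between BM 3W and fresh cells for 10 proteasome genes by the interaction term of edgeR's quasi-likelihood test. On the log2 scale, the YAP-/- effect in BM 3W minus that in fresh cells was 1.42 for Psmg1, 1.62 for Psmd9, 0.93 for Psmd12, 1.18 for Psmd8, 0.94 for Psmd13, 0.82 for Psmd5, 0.82 for Psmc4, 1.24 for Psmg2, 0.98 for Psmf1 and 1.31 for Psmb7. Adjusted p ran from 0.0127 for Psmg1 to 0.0433 for Psmb7. None passed with libraries scaled by total counts or to the 20S subunits, and without 1 library 0 to 8 genes passed.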

How the results depend on the processing

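Counts below are genes risen and fallen of the 49 tested, and percentages are the shares of all tested genes. With total counts they were 37 and 0 in BM 1D (50.1% and 9.58%), 29 and 0 in BM 3D (53.7% and 7.36%), 28 and 0 in BM 3W (65.8% and 9.67%) and 6 and 2 in LBDXL 3W (25.5% and 5.83%) against FH. They were 0 and 0 in BM 3D against BM 1D (3.72% and 1.26%) and 0 and 2 in BM 3W against BM 3D (18% and 4.99%). They were 0 and 7 in LBDXL 3W against BM 3W (8.05% and 47.2%), and 0 and 0 in BM 3W YAP-/- against BM 3W (5.66% and 35.8%) and for the interaction (3.28% and 19.7%). The limma tests on FPKM, also scaled to total fragments, gave 36 and 1, 31 and 1, 30 and 1, and 12 and 2 against FH with either pseudocount, none fallen in BM 3D against BM 1D, 3 fallen in BM 3W against BM 3D, 0 and 7 in LBDXL 3W against BM 3W, and none risen in BM 3W YAP-/- against BM 3W or for the interaction. Against FH the shares with a pseudocount of 1 were 49.6% and 12.5%, 56% and 9.21%, 65.9% and 11.6%, and 23.8% and 6.21%. With 0.1 they were 52.6% and 12.8%, 58.1% and 9.09%, 66.3% and 11.6%, and 30.7% and 6.73%. In LBDXL 3W against BM 3W they were 9.61% and 49% with 1, and 9.76% and 48.4% with 0.1. Unfiltered, the limma tests gave 36 and 1 (33.2% and 8.64%), 31 and 0 (38.1% and 6.6%), 31 and 1 (56% and 8.46%), and 12 and 1 (13.6% and 4.34%) against FH. They gave 1 risen in BM 3D against BM 1D (3.34%), 3 fallen in BM 3W against BM 3D (4.39%) and 1 and 8 in LBDXL 3W against BM 3W (6.55% and 43.5%). They gave 1 and 1 in BM 3W YAP-/- against BM 3W (5.4% and 35.6%), and 0 and 1 for the interaction (3.38% and 28.6%). Scaled to the 20S subunits, 1 fell in BM 3D (11.1%), 5 rose and 3 fell in BM 3W (48.4% and 12.4%), and 2 rose and 2 fell in LBDXL 3W (12.3% and 6.15%) against FH. That scaling gave 1 and 4 in LBDXL 3W against BM 3W (8.62% and 31.4%), and none fallen in BM 3D against BM 1D (0.504%) or BM 3W against BM 3D (2.74%). It gave 0 risen in BM 3W YAP-/- against BM 3W (5.04%) and for the interaction (2.65%). DESeq2 size factors gave 4 fallen in BM 3W against BM 3D (7.58%), 12 and 1 in LBDXL 3W against BM 3W (17.5% and 26.2%), and 2 risen for the interaction (6.38%). DESeq2's Wald test gave 1 and 3 in BM 3D against BM 1D (8.04% and 4.38%) and 1 fallen in LBDXL 3W against BM 3W (26.5%). With no filter 5 fell in BM 3D against FH (13.8%), 0 in BM 3D against BM 1D (1.29%), and 3 rose for the interaction (6.36%). The compared groups alone gave 11 risen in BM 1D against FH (25.8%), 0 fallen in BM 3D against BM 1D (0%), and 3 fallen in BM 3W against BM 3D (4.59%). They gave 2 risen in LBDXL 3W against BM 3W (10.6%), 3 and 4 in FH YAP-/- against FH (18.1% and 19.4%), and 18 risen for the interaction (16.8%).

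Leaving out 1 library gave 4 to 8 risen and 1 to 3 fallen in BM 1D, 2 to 4 and 0 to 4 in BM 3D, 0 to 1 and 12 to 18 in BM 3W, and 1 to 2 and 2 to 6 in LBDXL 3W against FH. It gave 0 to 1 fallen in BM 3D against BM 1D, 2 to 4 fallen in BM 3W against BM 3D, 4 to 25 risen and 0 to 2 fallen in LBDXL 3W against BM 3W, 4 to 19 risen in BM 3W YAP-/- against BM 3W, and 0 to 8 risen for the interaction. A lone remaining library is assumed to vary like the other groups. In BM 3W against FH the log2 value of Psmb8 turned to 0.49 with total counts, 0.00431 scaled to the 20S subunits, 0.42 in limma with a pseudocount of 1, filtered or not, and 0.44 with 0.1. That of Psmb10 turned to 0.40, 0.21 and 0.24 with total counts and these pseudocounts, and that of Psme4 to 0.17, 0.19 and 0.20. The cause of these changes was not tested. The labels give no source for a pairing by replicate number. Correlations of same-numbered deviations ran from -0.0231 to 0.461, with 0.461 between BM 1D and BM 3D, 0.311 between BM 3W YAP-/- and BM 3W and 0.227 between BM 3W YAP-/- and LBDXL 3W. With a replicate block the counts were 8 and 5 (24.8% and 21.6% of all genes), 4 and 9 (23.8% and 19.6%), 2 and 33 (33.6% and 27.8%), and 1 and 6 (12.7% and 10.6%) against FH. The block gave 13 fallen in BM 3W against BM 3D (12.3%) and 23 risen in LBDXL 3W against BM 3W (22.6%). It gave 24 risen in BM 3W YAP-/- against BM 3W (17.2%) and 10 risen for the interaction (9.47%). Of the values of single named genes under the alternatives, 491 kept their side of the threshold, 276 lost the call, 8 gained it and 13 were reversed. Values that passed in neither the main fit nor the alternative count as kept whatever their sign. Reversed values had passed in the main fit and changed sign, or passed only in the alternative with the other sign. With 2 libraries a group, small changes are poorly resolved.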
